A study of Homo sapiens with 6 samples.

Results

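A set of 10 genes of the Wnt pathway was followed through the response of breast cancer cells to loss of UBE3D: DKK1, FZD7, LRP6, RNF43, ZNRF3, AXIN2, CTNNB1, LEF1, TCF7 and TCF7L2. They were taken by gene symbol for their known roles in the pathway, with earlier results of these data known. All 10 were found among the 20115 genes in the table. Readthrough downstream-of-gene (DoG) regions bear the names of 2 of them, DKK1 and CTNNB1, among 2014 regions. MDA-MB-231 is an established line from a triple-negative breast cancer. Total RNA was compared between UBE3D KD cells (3 libraries), in which doxycycline induced hairpins against UBE3D that a lentivirus had placed in the genome, and control cells (3 libraries). The medium of both held 10% fetal bovine serum. Neither the hairpin carried by the control nor its exposure to doxycycline is given in the labels. The labels title the libraries of each group as numbered replicates, mark each sample as pooled and name no separate cultures. This leaves the p-values to measure library spread alone, possibly technical. The question behind the series is what UBE3D depletion, and through it the 3' end endonuclease CPSF73, does to gene expression and to readthrough transcription in these cells.

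Wnt proteins are secreted ligands that bind Frizzled receptors together with the co-receptors LRP5 and LRP6. Without ligand, a complex built on AXIN and APC marks beta-catenin, the product of CTNNB1, for breakdown. When ligand binds, beta-catenin escapes, enters the nucleus and acts on genes through the DNA-binding factors LEF1, TCF7, TCF7L1 and TCF7L2. Several target genes feed back on the pathway: AXIN2 restores the breakdown complex, RNF43 and ZNRF3 remove Frizzled from the surface, and DKK1 is secreted and blocks LRP6. In bulk RNA, fewer cells that make a transcript and less of it per cell cannot be told apart.

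The data are the authors' deposited tables of 1 comparison, UBE3D KD over control. Each row gives a mean normalized count over all 6 libraries, a log2 fold change shrunken toward 0, its standard error (SE) and a p-value with its adjustment over the table. No values per library were analysed here, which leaves depth unknown and each value without its replicates. A gene is called raised or lowered at an adjusted p under 0.05. By that rule 12.5% of all genes were called, 4.62% raised and 7.93% lowered. UBE3D itself had a log2 fold change of -0.80 (adjusted p = 0.00632, SE 0.37) in the authors' deposited table, with 36.7 normalized counts on average. CPSF3, which encodes CPSF73, had -0.12 (adjusted p = 0.464, SE 0.13), per the authors' deposited table. Of 5 genes expected in the line 4 were lowered, and the 5 had means between 82.6 (SPARC) and 11376 (AXL) in the authors' deposited table. The median over all genes was 90.4, and no rule for presence was set. The 8 luminal markers had means between 9.74 (FOXA1) and 1388 (KRT19), with 22.2 for the estrogen receptor gene ESR1, and EPCAM was lowered and CDH1 raised, per the authors' deposited table. Of 6 blood and endothelial markers in the table none was called, with 1 at an unadjusted p under 0.05 by the authors' DESeq2 test. Of 7 fibroblast markers LUM and PDGFRB were raised, and of 6 markers of the kidney line used to package virus GATA2 was raised. Whether these changes have any part in those of the Wnt genes was not tested.

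Among the 10 Wnt genes 1 rose, DKK1, and 1 fell, LEF1. The other 8 did not pass the threshold, and 4 of the 10 had an unadjusted p under 0.05. The share called, 2 of 10, stands beside 12.5% of all genes, and the 8 members that average 100 or more normalized counts held 1 raised gene and none lowered. Among all 9743 genes at that abundance 7.45% were raised and 12.4% lowered. The median log2 fold change of the 10 was -0.17, against -0.03 over all genes, with 7 below 0 and 3 above it.

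The sequences shown are the promoters of the 2 called members, because LEF1 and the TCF proteins bind DNA at a short motif and because DKK1 is a known target of beta-catenin in other cells. They are from RefSeq on GRCh38.p14, 250 bases before to 50 after a start site. The DKK1 promoter is chr10:52314031-52314330 on the plus strand and the LEF1 promoter chr4:108166252-108166551 on the minus strand, which lies inside LEF1 as GENCODE 29 draws the gene. Capitals mark a match, on either strand, to the core of the TCF/LEF motif. It was searched as 4 words: CTTTGAA, which ends in a pair of A bases, its neighbour with a last T, CTTTGAT, and the forms with T at the sixth base, CTTTGTA and, most different from the first, CTTTGTT.
DKK1: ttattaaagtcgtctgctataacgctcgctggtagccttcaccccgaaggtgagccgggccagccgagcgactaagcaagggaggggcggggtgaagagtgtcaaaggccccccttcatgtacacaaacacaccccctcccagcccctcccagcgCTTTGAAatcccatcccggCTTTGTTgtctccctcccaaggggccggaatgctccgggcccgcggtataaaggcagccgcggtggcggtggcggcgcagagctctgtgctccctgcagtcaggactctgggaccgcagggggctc
LEF1: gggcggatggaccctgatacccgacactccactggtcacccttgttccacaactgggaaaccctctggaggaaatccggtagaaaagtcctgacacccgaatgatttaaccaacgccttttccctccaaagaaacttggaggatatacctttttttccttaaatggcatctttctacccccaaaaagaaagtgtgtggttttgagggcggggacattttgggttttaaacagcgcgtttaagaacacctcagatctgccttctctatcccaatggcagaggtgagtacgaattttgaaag

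The DKK1 promoter holds 2 matches, CTTTGAA and CTTTGTT, which begin at positions -95 and -76 from the start site and do not overlap. The LEF1 promoter holds none. Of all 35116 promoters of this length, 13.8% hold at least 1 of the words and 1.58% at least 2. The table had promoters for 6 of the 10 members, 10 in all, and 3 of these 10 hold a word. The others with a word are 1 promoter of TCF7 and 1 of TCF7L2, and the promoters of CTNNB1 and RNF43 hold none. AXIN2, FZD7, ZNRF3 and LRP6 have no entry. A match describes the letters only.

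Levels differed widely between the members. Per kb of annotated exon, DKK1 had the highest mean normalized count over the libraries, 1050 per kb, followed by CTNNB1 with 435 per kb. FZD7 had 150.1 per kb, LRP6 93.3 per kb and TCF7L2 64.8 per kb. ZNRF3 (21.5 per kb), RNF43 (20.6 per kb), AXIN2 (12.1 per kb), TCF7 (10.7 per kb) and LEF1 (5.70 per kb) were the lowest. The nuclear factor of highest level was thus TCF7L2, and LEF1 was the lowest of the 10. Dividing by the longest transcript instead gave 1295 per kb for DKK1 and 1061 per kb for CTNNB1, put TCF7L2 (106 per kb) before LRP6 (96.3 per kb), and turned round the neighbours RNF43 (27.7) and ZNRF3 (21.9) and the neighbours TCF7 (20.1) and AXIN2 (14.8). No spread over libraries is given for a level, so these neighbours are not ordered.

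**Figure D1:**
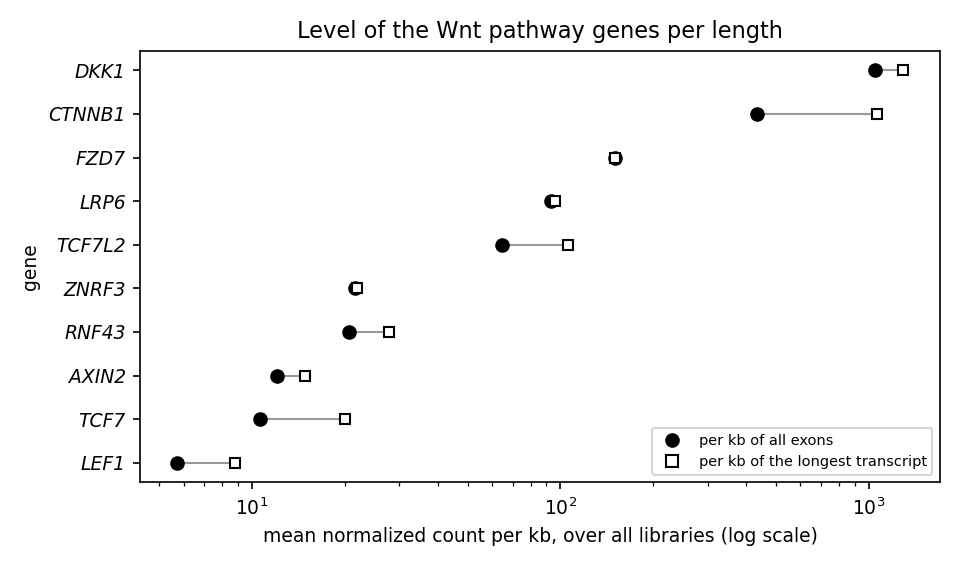
Mean normalized count over all libraries per kb (log axis) for each of the 10 genes, divided by the length of all exons (filled circles) or of the longest transcript (open squares). DKK1 and CTNNB1 lie highest and LEF1 lowest, at 5.70 per kb of exon.

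DKK1, the secreted antagonist, was 59.0% higher in UBE3D KD cells than in control cells. It is a gene of 4 exons on chromosome 10 (52314296 to 52318042, plus strand, GRCh38 with GENCODE 29). Its mean of 2317 normalized counts is above that of 97.0% of all genes. The authors' deposited table gives a log2 fold change of 0.67 (SE 0.14, 95% interval 0.39 to 0.94, adjusted p = 2.74e-06). Of the 929 raised genes, 308 rose by more than DKK1, but of the 17 raised genes with a mean at least as high as its own only 3 did. The antisense gene PRKG1-AS1 overlaps DKK1 by 212 bases on the opposite strand and did not pass the threshold (log2 fold change 0.42, adjusted p = 0.106, SE 0.37, mean of 28.7) in the authors' deposited table. The strand setting of the counting is not given in the sources used here.

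Both receptors had fold changes below 0. FZD7, a Frizzled receptor encoded by a single exon on chromosome 2 (202034587 to 202038445, plus strand), narrowly missed the threshold, with a difference of -15.3% between UBE3D KD and control cells. Its log2 fold change was -0.24 (SE 0.11, 95% interval -0.45 to -0.03, adjusted p = 0.0548) in the authors' deposited table. The FZD7 adjusted p was 0.0374 when only genes that average 50 or more were adjusted together and 0.0349 at 100 or more. LRP6, the co-receptor that DKK1 blocks, lies on chromosome 12 (12116025 to 12267012, minus strand). In UBE3D KD over control cells it had a log2 fold change of -0.14 (SE 0.11, 95% interval -0.36 to 0.07, adjusted p = 0.319), per the authors' deposited table. Its paralog LRP5 had -0.20 (adjusted p = 0.140, SE 0.11) in the authors' deposited table.

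RNF43 and ZNRF3, the paired membrane ubiquitin ligases that clear Frizzled, did not pass. RNF43, on chromosome 17 (58352500 to 58417595, minus strand), had a log2 fold change of -0.20 (SE 0.16, 95% interval -0.51 to 0.10, adjusted p = 0.239) in the authors' deposited table. ZNRF3, on chromosome 22 (28883592 to 29057487, plus strand), had 0.03 (SE 0.12, 95% interval -0.21 to 0.26, adjusted p = 0.906), per the authors' deposited table. Their intervals overlap and span ratios of UBE3D KD to control between 0.702 and 1.07 for RNF43 and between 0.865 and 1.20 for ZNRF3. SUPT4H1, which overlaps RNF43 by 594 bases on the same strand, had 0.06 (adjusted p = 0.734), and ZNRF3-AS1, which overlaps ZNRF3 by 6478 bases on the opposite strand, -0.08 (adjusted p = 0.707) in the authors' deposited table.

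AXIN2, the scaffold that is widely read as an indicator of beta-catenin activity, was not called. It lies on chromosome 17 (65528563 to 65561647, minus strand) and had a mean of 63.2 normalized counts. The authors' deposited table gives a log2 fold change of -0.19 (SE 0.26, 95% interval -0.70 to 0.33, adjusted p = 0.384). The interval of AXIN2 spans ratios of UBE3D KD to control from 0.614 to 1.25, so its direction is not settled. It is no limit of detection, since LEF1 was called although its interval crosses 0. CTNNB1, which encodes beta-catenin and lies on chromosome 3 (41194741 to 41260096, plus strand), was measured more tightly. At a mean of 5184 normalized counts its log2 fold change was -0.07 (SE 0.11, 95% interval -0.28 to 0.15, adjusted p = 0.687) in the authors' deposited table. The interval spans ratios of UBE3D KD to control from 0.821 to 1.11. RNA level does not report on the breakdown of beta-catenin protein, which was not measured. ULK4, which overlaps CTNNB1 by 13498 bases on the opposite strand, had 0.08 (adjusted p = 0.683, SE 0.16), per the authors' deposited table.

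Among the DNA-binding factors only LEF1 was called as deposited, and no difference between them was tested. LEF1, on chromosome 4 (108047545 to 108168956, minus strand), fell to a ratio of 0.502 in UBE3D KD cells against control cells. Its log2 fold change was -0.99 (adjusted p = 0.00928, SE 0.59) in the authors' deposited table, at a mean of only 30.5 normalized counts, above that of 33.0% of genes. Of the 6648 genes with a mean no higher than that of LEF1, 167 were lowered. The interval from the shrunken LEF1 value and its SE runs from -2.15 to 0.16 and the call was lost in a Wald test on these shrunken values (adjusted p = 0.638, and 0.654 after a shift of all genes to a median of 0). Without the shift that test can only weaken calls, here and below, since the shrunken values are small for their p-values. LEF1-AS1, which overlaps LEF1 by 1432 bases on the opposite strand, had -0.21 (adjusted p = 0.260, SE 0.46) at a mean of 8.03, per the authors' deposited table. TCF7L2, on chromosome 10 (112950250 to 113167678, plus strand), had a log2 fold change of -0.19 (SE 0.12, 95% interval -0.43 to 0.05, adjusted p = 0.202) in the authors' deposited table. TCF7, on chromosome 5 (134114711 to 134151865, plus strand), had 0.02 (SE 0.17, 95% interval -0.32 to 0.35, adjusted p = 0.951), per the authors' deposited table. TCF7L1, the remaining member of that family, had 0.15 (adjusted p = 0.494, SE 0.26) in the authors' deposited table. The intervals of LEF1 and of the other family members overlap.

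**Figure D2:**
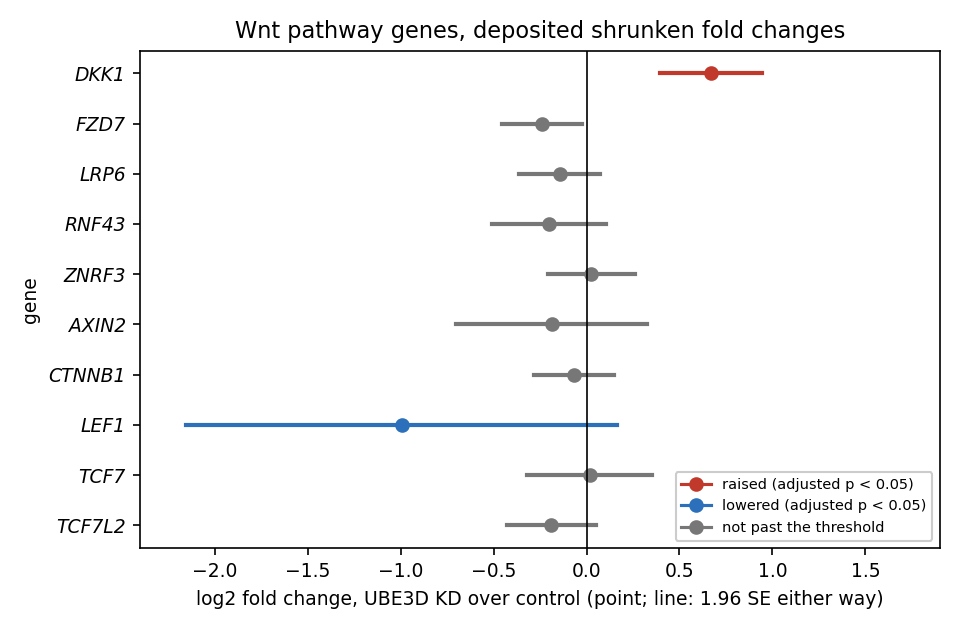
Deposited shrunken log2 fold change, UBE3D KD over control (points), with 95% intervals (lines), for the 10 genes, in the order in which their products act. DKK1 lies above 0 at 0.67, LEF1 below it at -0.99 with the widest line, and the other 8 between -0.24 and 0.03.

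**Figure D3:**
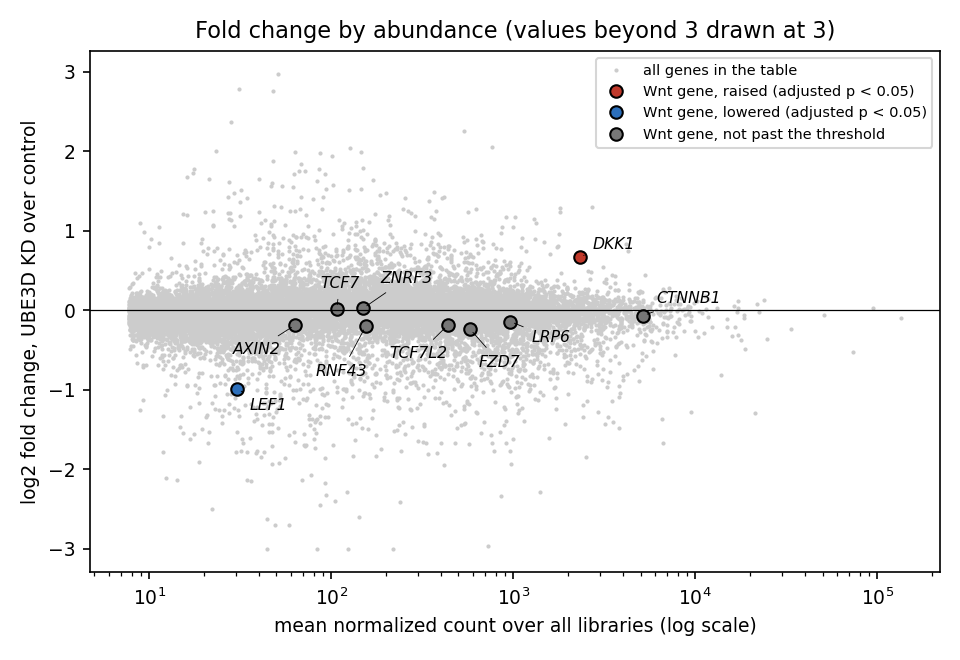
Log2 fold change, UBE3D KD over control, against the mean normalized count over all libraries (log axis), with all 20115 genes in grey and the 10 Wnt genes named. DKK1 lies at a mean of 2317 and a fold change of 0.67 and LEF1 at 30.5 and -0.99, and the other 8 lie between -0.24 and 0.03. Among all called genes, 308 rose by more than DKK1 and 283 fell by more than LEF1. Values beyond 3 are drawn at 3.

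Readthrough past the members could be read in 2 regions. Of all DoG regions 28.8% were called, 12.7% raised and 16.1% lowered. The DoG region of DKK1 was raised, with a log2 fold change of 0.34 (SE 0.17, 95% interval 0.00 to 0.67, adjusted p = 0.0411) in the authors' deposited table of regions, where its mean was 113.9 normalized counts. That of the DKK1 gene itself, from the authors' deposited gene table, was 0.67 (SE 0.14), so region and gene were both higher in UBE3D KD cells. Of 255 raised regions 217 rose by more than that of DKK1, and its call was lost in a Wald test on the shrunken value (adjusted p = 0.173). No gene is annotated in GENCODE 29 for 71070 bases past the end of DKK1. The DoG region of CTNNB1 did not pass (log2 fold change 0.09, SE 0.20, 95% interval -0.31 to 0.50, adjusted p = 0.672) in the authors' deposited table. The tables may be scaled separately, so the levels of region and gene are not compared and the difference in fold change was not tested.

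To set the 10 genes in their pathway, 198 further genes were listed by role, and 188 of them were in the table. The lists were written with earlier results of these data known, so their shares, here and below, are no independent test. Of these 9 were raised and 27 lowered, or 4.79% and 14.4%, beside 4.62% and 7.93% of all genes. The median log2 fold change of the 188 was -0.07. Of the 104 that average 100 or more normalized counts, 6 were raised and 22 lowered, or 5.77% and 21.2%, beside 7.45% and 12.4% of all genes at that abundance. Counts of called genes fell by over 1.5 times under several alternatives, given further on. The shares of all genes, 4.62% raised and 7.93% lowered, are also those to set beside the counts of each list below.

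Ligands were mostly of low abundance, with a median mean of 22.5 normalized counts over the 20 genes of ligands and their secretion. WNT7B was the 1 gene lowered and none was raised (at an unadjusted p under 0.05, 2 and 1 by the authors' DESeq2 test). WNT7B, a ligand of the canonical branch in several tissues, had a log2 fold change of -1.33 (adjusted p = 1.53e-08, SE 0.23), 2.51-fold lower in UBE3D KD cells, at a mean of 86.8 in the authors' deposited table. Of 12 other receptors and co-receptors 1 was lowered and 1 raised. ROR1, a receptor-like kinase that binds WNT5A, fell by 0.74 on the log2 scale (adjusted p = 2.44e-10, SE 0.11) at a mean of 689 in the authors' deposited table. FZD4, a Frizzled that also binds the non-Wnt ligand norrin, was higher, at 0.41 (adjusted p = 0.0364, SE 0.22), per the authors' deposited table, a call lost in the Wald test (adjusted p = 0.478). Among these 12 genes 8 had a fold change below 0, beside 56.8% of all genes.

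Other secreted modulators and their receptors gave 1 raised and 1 lowered gene of 23. TPBG, a membrane inhibitor of Wnt signalling, rose by 0.32 on the log2 scale (adjusted p = 0.00203, SE 0.10) at a mean of 413 in the authors' deposited table. WIF1, which encodes a secreted Wnt inhibitor, was called lower (-0.48, adjusted p = 0.0267, SE 0.77) at a mean of 13.7, per the authors' deposited table, and that call was lost in the Wald test (adjusted p = 1.00). DKK3, a divergent relative of DKK1, had -0.47 (adjusted p = 0.0899, SE 0.45), and DKK2 -0.19 (adjusted p = 0.275, SE 0.46), at means of 35.4 and 14.4 in the authors' deposited table. DKK1 was thus the only DKK gene of the table called and the only one with a mean above 100.

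In the breakdown complex and Dishevelled 1 gene was lowered and 2 were raised, with 22 of 25 not past the threshold. The casein kinase gene CSNK1G3 was lower (-0.36, adjusted p = 0.0110, SE 0.14), and the Dishevelled gene DVL3 (0.20, adjusted p = 0.0458, SE 0.08) and AMER1 (0.34, adjusted p = 0.0461, SE 0.18), whose product binds APC, were higher in the authors' deposited table. All 3 calls were lost in the Wald test on shrunken values, with an adjusted p of 0.141 for CSNK1G3, 0.172 for DVL3 and 0.445 for AMER1. Of the core parts, APC had a log2 fold change of 0.04 (SE 0.09), AXIN1 -0.02 (SE 0.13) and GSK3B -0.13 (SE 0.13), per the authors' deposited table.

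Nuclear partners of beta-catenin had 6 of 24 genes lowered and none raised (at an unadjusted p under 0.05, 8 and 1 by the authors' DESeq2 test). The share lowered was 25.0%, beside 7.93% of all genes. Among those that average 100 or more it was 5 of 20, beside 12.4% of all genes at that abundance. HIPK2, a nuclear kinase that acts with several transcription factors, fell by 1.15 on the log2 scale (adjusted p = 7.41e-21, SE 0.12) at a mean of 3488 in the authors' deposited table. TBL1XR1, a part of co-regulator complexes, had -0.66 (adjusted p = 2.89e-06, SE 0.14), and the co-repressor gene TLE3 -0.38 (adjusted p = 0.000562, SE 0.11), per the authors' deposited table. BCL9L, which encodes a co-activator that links beta-catenin to PYGO proteins, had -0.32 (adjusted p = 0.00426, SE 0.11), and CTNNBIP1, whose product keeps beta-catenin from TCF factors, -0.30 (adjusted p = 0.0214, SE 0.12) in the authors' deposited table. SOX4 (-0.64, adjusted p = 0.0438, SE 0.51), a transcription factor, was called lower at a mean of 45.6, per the authors' deposited table. The list holds activators and inhibitors alike, and both were among the genes lowered. The calls of CTNNBIP1 and SOX4 were lost in the Wald test (adjusted p = 0.180 and 0.978), and that of BCL9L only after the shift to a median of 0 (adjusted p = 0.0851).

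Genes known as Wnt targets in other cells had 11 of 39 members lowered (28.2%) and 2 raised (5.13%), beside 7.93% and 4.62% of all genes. Of the 20 that average 100 or more normalized counts 10 were lowered and none raised, beside 12.4% and 7.45% of all genes at that abundance. By the Wald test, with or without the shift, 5 were lowered, with the calls of CCND1, CD44, FOSL1, SOX9, L1CAM and ADAM10 lost, and 3 were lowered by at least 1.5-fold. Beside this, AXIN2, RNF43 and ZNRF3, targets of the pathway in many tissues, did not pass, and DKK1, also a target, was raised. Of the other members, LEF1 was called lowered, a call lost in the Wald test, and TCF7 did not pass. The receptor kinase gene EPHB2 fell by 1.01 on the log2 scale (adjusted p = 2.95e-19, SE 0.11) and the Notch ligand gene JAG1 by 0.87 (adjusted p = 9.89e-17, SE 0.10) in the authors' deposited table. TBX3, a transcription factor gene, had -2.50 (adjusted p = 7.74e-06, SE 0.71) at a mean of 22.1, per the authors' deposited table. ENC1 (-0.54, adjusted p = 7.5e-05, SE 0.14), an actin-binding protein gene, and VEGFA (-0.46, adjusted p = 8.06e-05, SE 0.12), the angiogenic growth factor gene that hypoxia also raises, fell too, per the authors' deposited table. BAMBI, which encodes a decoy receptor that dampens TGF-beta signalling, rose by 0.63 (adjusted p = 0.00168, SE 0.22) in the authors' deposited table, a call lost in the Wald test (adjusted p = 0.0543). ID2, the other raised target, is also a BMP target and had 0.95 (adjusted p = 0.0025, SE 0.38) at a mean of 37.9, per the authors' deposited table, and its call was lost too (adjusted p = 0.163). CCND1, the cyclin D1 gene, was called lower (-0.28, adjusted p = 0.0395, SE 0.12), a call lost in the Wald test (adjusted p = 0.273), and MYC did not pass (-0.18, adjusted p = 0.218, SE 0.12), per the authors' deposited table. NKD1 and SP5, which report beta-catenin activity in many cells, had -0.13 (adjusted p = 0.502, SE 0.36) and -0.01 (adjusted p = 0.983, SE 0.24) in the authors' deposited table. The target list overlaps with genes that answer to hypoxia, Notch or BMP signals, which were not separated here.

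The planar polarity and calcium branch, which works without beta-catenin, had 5 of 30 genes lowered (16.7%) and 1 raised (3.33%), beside 7.93% and 4.62% of all genes. Among those that average 100 or more, 22.7% were lowered, beside 12.4% of all genes at that abundance. Of the 3 polarity cadherin genes, 1 was lowered, 1 raised and 1 did not pass: CELSR1 had a log2 fold change of -0.93 (adjusted p = 4.12e-06, SE 0.20), CELSR2 one of 0.51 (adjusted p = 0.00147, SE 0.17) and CELSR3 one of 0.02 (adjusted p = 0.928, SE 0.18) in the authors' deposited table. PRICKLE2 (-0.54, adjusted p = 5.31e-06, SE 0.12) and PRICKLE1 (-0.35, adjusted p = 0.0158, SE 0.14), cytoplasmic polarity genes, were lower, per the authors' deposited table. The protein kinase C gene PRKCA (-0.39, adjusted p = 0.00025, SE 0.11) and the small GTPase gene CDC42 (-0.42, adjusted p = 0.00106, SE 0.13) fell as well, per the authors' deposited table. Of these, the call of PRICKLE1 was lost in the Wald test (adjusted p = 0.182). Junctional cadherins and catenins, which hold beta-catenin at the membrane, had 2 of 15 raised (13.3%) and 1 lowered (6.67%), beside 4.62% and 7.93% of all genes. CDH11, a mesenchymal cadherin gene, rose by 0.61 on the log2 scale (adjusted p = 3.36e-05, SE 0.15) at a mean of 959 in the authors' deposited table. CDH1, which encodes E-cadherin, was higher (1.06, adjusted p = 0.00125, SE 0.39) at a mean of 74.9, and the alpha-catenin gene CTNNA2 lower (-0.64, adjusted p = 0.0298, SE 0.78) at a mean of 30.0, per the authors' deposited table. The calls of CDH1 and CTNNA2 were lost in the Wald test (adjusted p = 0.0966 and 1.00).

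**Figure D4:**
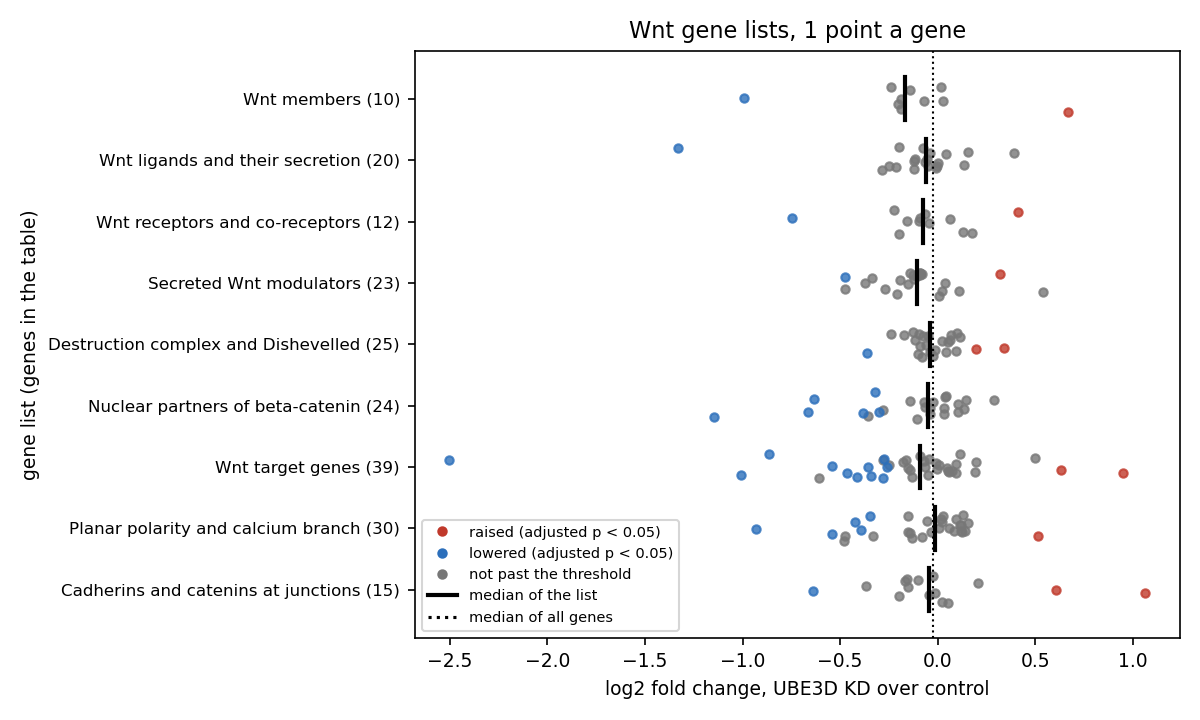
Log2 fold change, UBE3D KD over control, of each gene (points, with random vertical spread) in the 10 Wnt genes and in 8 wider lists, with the median of each list (bar) and of all genes (dotted line). As deposited, 6 of 24 nuclear partners and 11 of 39 targets were lowered, beside 7.93% of all genes, and the medians lie between -0.17 and -0.01. The lists were written with earlier results of these data known.

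Genes were also split by a 7-base word, GATTGAA, in their 3' untranslated region (UTR). This word and the second one below were known from earlier results of these same data, so the shares are no independent test. Of 1032 genes with the word among 9127 genes that average 100 or more and have a 3' UTR, 319 (30.9%) were lowered, against 10.3% of the 8095 without it. Raised were 54 of the 1032 with GATTGAA, against 612 of the 8095 without it. A second word read the same way, CTTATCT, had 137 genes lowered of the 1137 with it, against 1019 of the 7990 (12.8%) without it. Raised were 166 of these 1137, against 500 of the 7990. In the wider Wnt lists 32 genes hold CTTATCT, of which 4 were lowered and 2, TPBG and BAMBI, raised. Of the 155 without it 23 were lowered and 7 raised. Among the 10 Wnt genes only ZNRF3 holds CTTATCT. None of the 10 Wnt genes holds GATTGAA, so DKK1, LEF1 and the 8 others were read from transcripts without the word in their longest annotated 3' UTR. Of 187 wider Wnt genes with a 3' UTR 17 hold GATTGAA, and 6 of these were lowered and 1, CDH11, raised, against 21 lowered and 8 raised of the 170 without it. The lowered genes with the word are ROR1, CSNK1G3, HIPK2, TBL1XR1, ADAM10 and PRICKLE1. Their sites are shown because these genes make up 6 of the 27 lowered, with the word in capitals and 11 bases on each side, from GENCODE 29 transcripts. The genes lie on chromosomes 1, 5, 7, 3, 15 and 12, in the order below. For TBL1XR1 and ADAM10, which hold the word more than once, the first site is given.
ROR1: ggaattatattGATTGAAtttagactctg
CSNK1G3: ataattttgatGATTGAAaaatattttgg
HIPK2: atttttattttGATTGAAagatggtgaga
TBL1XR1: aaaacagcattGATTGAAgcaagtcttgg
ADAM10: tatctgcaagaGATTGAAactcatagtat
PRICKLE1: cgccagctacaGATTGAAaaaaaaaaaca
The sources used here hold no hairpin sequence, and whether the word belongs to one was not tested. Of the 170 wider Wnt genes without the word, at any abundance, 21 (12.4%) were lowered, against 35.3% of the 17 with it. Beside these, 7.93% of all genes were lowered, and 10.3% of the genes without the word that average 100 or more.

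Of the wider Wnt genes 20 had a DoG region, 5 of them under a merged name, and 7 of the 20 were lowered and 1 raised, beside 16.1% and 12.7% of all regions. In 6 of the 7 lowered regions the host gene itself did not pass. The region of WNT9A, merged with MIR5008, had the largest fall, with a log2 fold change of -0.99 (adjusted p = 2.1e-09, SE 0.17), while its host had -0.25 (adjusted p = 0.242, SE 0.25) in the authors' deposited tables. The regions of the casein kinase genes CSNK1A1 (-0.50, adjusted p = 0.0071, SE 0.20) and CSNK1D (-0.38, adjusted p = 0.0130, SE 0.15) fell, per the authors' deposited table of regions, and those hosts had -0.10 (SE 0.13) and -0.06 (SE 0.09) in the authors' deposited gene table. The region of PRICKLE3 fell by 0.45 (adjusted p = 0.000816, SE 0.13), that of RAC1 by 0.28 (adjusted p = 0.00356, SE 0.09) and that of INVS by 0.29 (adjusted p = 0.00395, SE 0.09) in the authors' deposited table. The target gene FOSL1 was lower in both, at -0.45 (adjusted p = 0.00903, SE 0.19) for its region and -0.41 (adjusted p = 0.00329, SE 0.14) for the gene, per the authors' deposited tables. RYK, a Wnt receptor gene, had the raised region (0.32, adjusted p = 0.0452, SE 0.16), beside -0.04 (SE 0.11) for the gene, in the authors' deposited tables. In the Wald test on shrunken values the region calls of CSNK1A1 (adjusted p = 0.0713), CSNK1D (0.0737), FOSL1 (0.0743) and RYK (0.174) were lost, and those of WNT9A, PRICKLE3, RAC1 and INVS kept.

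Opposite-strand genes with a mean of at least 50 were sought that overlap the end of the host or lie within 10 kb past it. Such a gene was found for 5 of these 7 lowered regions. It was also found for 6 of the 13 regions that did not pass and for neither raised region, counting DKK1 and CTNNB1. PLP2, such a gene for PRICKLE3, was itself lower (log2 fold change -0.32, adjusted p = 0.0130, SE 0.12) in the authors' deposited table. SLC16A3, past CSNK1D, had -0.26 (adjusted p = 0.0513, SE 0.12), and CCDC85B, past FOSL1, -0.31 (adjusted p = 0.0813, SE 0.18), per the authors' deposited table. What part these neighbours have in the region counts was not tested.

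**Figure D5:**
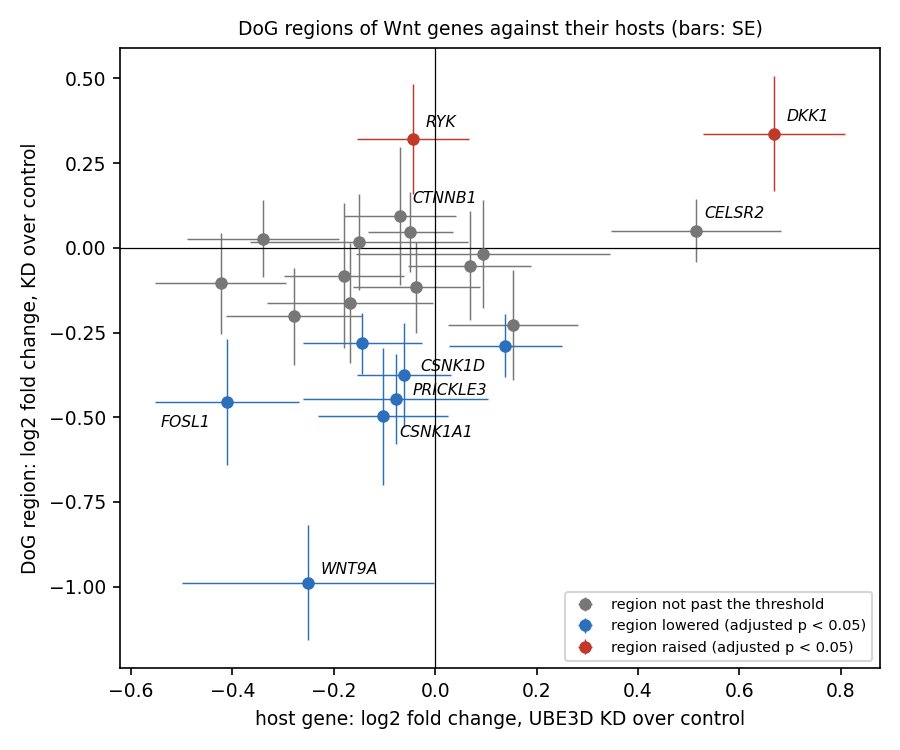
Log2 fold change, UBE3D KD over control, of each DoG region of a Wnt gene (vertical) against that of its host gene (horizontal), with SE bars, for 22 regions. DKK1 is at 0.34 and 0.67, and most lowered regions lie at host values near 0, with WNT9A lowest at -0.99.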

How the data were processed

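Total RNA of MDA-MB-231 cells (3 UBE3D KD and 3 control libraries) was depleted of ribosomal RNA, primed at random and sequenced as stranded pairs of 75 bp reads, as the labels' protocols state. Tools listed in the submitters' processing notes are DESeq2, STAR 2.5.2b and cutadapt 1.8.1, with the build hg38. How reads were counted (tool, strand setting, annotation) and how DoG regions were called is not given in the sources used here. Deposited by the authors are, per the file headers, a mean normalized count (read as a signal over all libraries), a log2 fold change with its SE, a p-value and its adjusted form for each gene and DoG region. No count per library was used, so depth is unknown and the SE is the measure of precision.

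The adjustment, recomputed, is that of Benjamini and Hochberg within each table. The deposited log2 values are shrunken, since the ratio of fold change to SE is smaller than its p-value implies in each of 20112 gene rows that could be checked (median 0.640 of the implied size) and of 2014 region rows (0.827). A 95% interval from the SE and the p-value can therefore differ. The authors' DESeq2 test across all genes was the main test; a Wald test on shrunken values, other thresholds, minimum counts and folds were alternatives. The Wald and adjustment step and the word search were tested on simulated data. Positions and lengths are from GENCODE 29, and a 3' UTR was the longest of at least 50 bases. Python 3.11.15, numpy 2.4.6, pandas 2.3.3, scipy 1.17.1 and matplotlib 3.10.9 were used.

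The members and lists were chosen with earlier results of these data known, the words GATTGAA and CTTATCT among them. Beside members, UBE3D and CPSF3, the rule named up to 6 called genes and regions of each list in order of p, or up to 2 with the lowest p where none passed. Genes outside it (paralogs LRP5, TCF7L1, DKK2 and DKK3, core parts APC, AXIN1 and GSK3B, targets CCND1, MYC, ID2, NKD1, SP5, CD44, FOSL1, SOX9 and L1CAM, CELSR3, markers, hosts and neighbours, ADAM10, and the regions of RYK and CSNK1D) were chosen after values were seen.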

Additional observations from a re-analysis of the deposited data

How the results depend on the processing

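DKK1 stayed raised under all 7 alternatives. With the Wald test on shrunken values, and again after the shift to a median of 0, the lowered members numbered 0 (1 and 0 at an unadjusted p under 0.05, and 3 by the authors' DESeq2 test), and with an adjusted p under 0.1 they were 2, LEF1 and FZD7. Minimum means of 50 and 100 leave LEF1 out. The wider lists had 9 raised and 27 lowered as deposited, 3 and 15 by the Wald test, 4 and 14 after the shift, and 4 and 10 at no less than 1.5-fold; at an adjusted p under 0.01 lowered genes were 16. Of the 36 called, 18 kept their call in the Wald test. Raised DoG regions, 1 among members and 1 in the wider lists, numbered 0 in each at a threshold of 0.01, by either Wald test (1 in each at an unadjusted p under 0.05) and at 1.5-fold. Lowered regions of the wider lists, 7 as deposited, were 4 by either Wald test and 1 at 1.5-fold. Of 80 alternative values of the 12 fold changes of members and their regions 71 kept their side of the threshold, 6 lost it and 3 (FZD7) gained it. Many of these outcomes were fixed in advance, so the count is no measure of robustness. A stricter threshold or a fold minimum cannot call a value that did not pass, and a looser threshold cannot lose a call. None turned sign, but only the shift changes a fold change at all. Without the shift, the Wald test can only weaken calls, since shrunken values lie below the p-value's quantile. No paired analysis was possible because the tables hold no values per library, and for the same reason no replicate could be left out. Unknown depth limits what can be said of low genes such as LEF1 and AXIN2.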
